A study of Mus musculus with 2 samples.

Results

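The 34 genes described here encode the engine of the mouse cell cycle and its brakes: 9 cyclins, 4 cyclin-dependent kinases (Cdks), 7 Cdk inhibitors, 3 Cdc25 phosphatases, 8 E2f transcription factors and 3 proteins of the Rb family. They were chosen by name, as the rows of the gene tables whose identifiers match the listed symbols, and all 34 were found among 43346 annotated genes. Total RNA longer than 200 nucleotides was sequenced from the hindbrain of healthy B6NCrl mouse embryos at 10.5 days of development, males and females pooled. There was 1 group of 2 libraries, each from 10 ng of RNA with synthetic spike-ins: pool 1 (replicate 1 in the labels) came from 69 embryos and pool 2 (replicate 2) from 51 embryos. In the labels they are numbered biological replicates, share a donor ID and differ in no genotype or treatment. With a single group no test between conditions could be made, and every difference below is a description of these 2 pools.

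In a dividing cell, D-type cyclins bound to Cdk4 or Cdk6 phosphorylate the Rb proteins, which then release E2f factors and allow the genes of DNA replication to be transcribed. E-type and A-type cyclins with Cdk2 carry the cell into and through S phase, and B-type cyclins with Cdk1 drive mitosis. Inhibitors of the Cip/Kip and INK4 families block these kinases, and Cip/Kip genes are known to mark the exit of neural precursors from the cycle. At this stage the hindbrain wall holds dividing neuroepithelial progenitors and the first neurons.

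Many of these genes are known to be controlled in phase with the cycle through short promoter motifs, so stretches of 6 promoters that hold such motifs are shown first. RefSeq windows from 250 bases before to 50 bases after a gene's start (build GRCm38.p6, the assembly of mm10) were given for 25 of the 34 genes, as 31 windows. Capitals mark 3 motifs searched on both strands: the CHR element TTTGAA, the E2f words TTTGGCGC, TTTCCCGC, TTTGCCGC and TTTCGCGC, and the CCAAT box, which reads ATTGG on the other strand. The Cdk1 stretch is chr10:69352913-69353052, minus strand, and shows all 3 motifs. The Ccnb1 stretch at chr13:100786537-100786596 and the Ccnb2 stretch at chr9:70421555-70421654, both on the minus strand, show the paired and tripled CCAAT boxes of the mitotic cyclins. The Cdc25a stretch at chr9:109875439-109875528 (plus strand), the E2f3 stretch at chr13:29986064-29986213 (minus strand) and the Rbl1 stretch at chr2:157204535-157204574 (minus strand) show E2f words.
Cdk1: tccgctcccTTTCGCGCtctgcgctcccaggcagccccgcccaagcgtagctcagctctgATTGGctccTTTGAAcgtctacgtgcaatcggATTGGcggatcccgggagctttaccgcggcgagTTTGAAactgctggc
Ccnb1: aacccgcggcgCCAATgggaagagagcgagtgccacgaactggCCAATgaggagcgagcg
Ccnb2: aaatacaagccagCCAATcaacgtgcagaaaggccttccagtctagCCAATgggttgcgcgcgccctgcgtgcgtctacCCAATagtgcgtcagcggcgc
Cdc25a: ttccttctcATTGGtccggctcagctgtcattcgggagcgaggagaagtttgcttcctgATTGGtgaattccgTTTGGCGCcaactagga
E2f3: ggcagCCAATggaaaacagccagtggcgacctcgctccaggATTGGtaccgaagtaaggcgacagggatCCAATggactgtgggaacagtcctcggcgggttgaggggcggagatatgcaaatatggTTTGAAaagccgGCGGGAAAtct
Rbl1: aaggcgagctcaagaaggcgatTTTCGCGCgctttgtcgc

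An E2f word lay in 8 of the 31 member windows (25.8%), against 2.26% of all 32851 RefSeq windows of the same length. The 8 genes were Cdk1, Cdk2, Cdkn2a, Cdc25a, E2f2, E2f3, E2f7 and Rbl1. A CCAAT box lay in 17 of 31 member windows (54.8%), against 37.4% of all windows, and TTTGAA lay in 7 of 31 (22.6%), against 17.9%. In Ccnb1, Ccnb2, Cdk1 and E2f7 the CCAAT boxes repeated on 1 strand at steps of 32 or 33 bases. Such pairs at steps of 31 to 34 bases, a feature chosen after the matches were seen, were in 4 of 31 member windows (12.9%), against 0.895% of all windows. These 4 genes differed widely in level, with mean TPM of 33.6 for E2f7, 188 for Ccnb2, 311 for Ccnb1 and 370 for Cdk1. A match says only that the letters are there, and 9 of the 34 genes, among them Ccnd1, Ccnd2, Cdkn1c and Rb1, had no window in the table used.

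**Figure D1:**
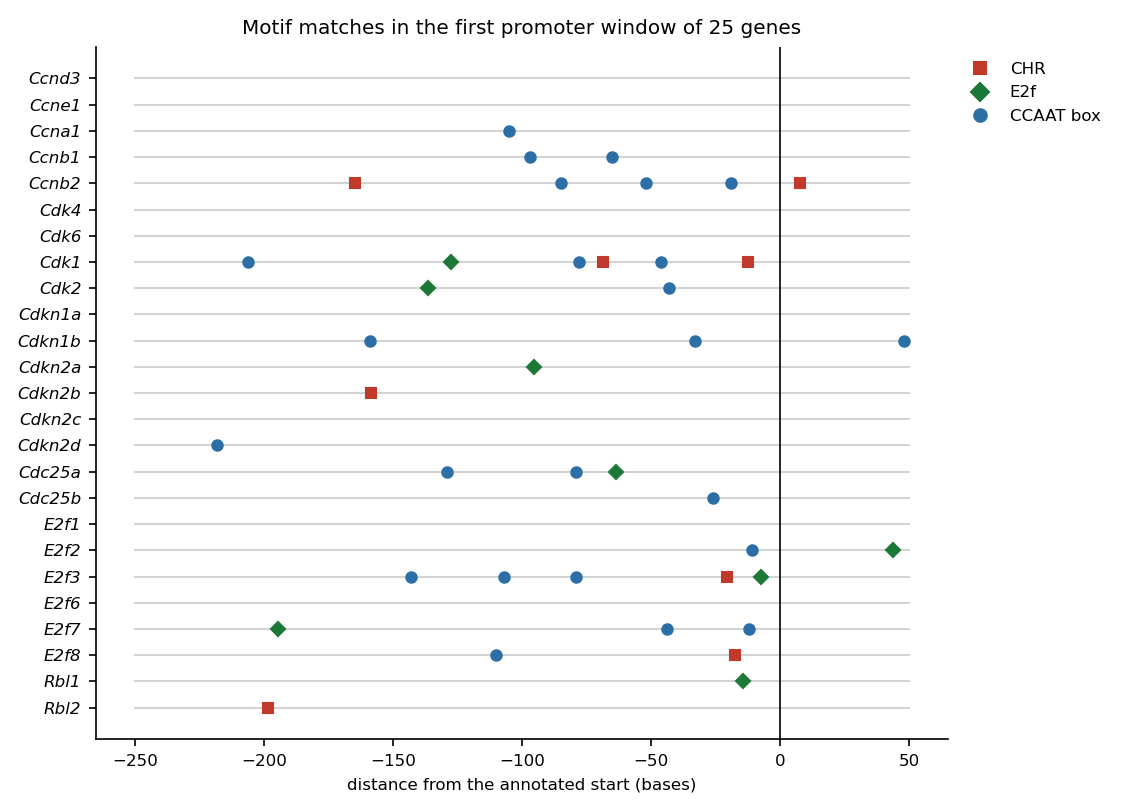
Positions of motif matches around the annotated start in the first RefSeq window of 25 genes, with the distance from the start in bases on the horizontal axis and 1 gene per line. The regular steps between CCAAT boxes are seen in Ccnb1, Ccnb2, Cdk1 and E2f7, and E2f words are seen in Cdk1, Cdk2, Cdkn2a, Cdc25a, E2f2, E2f3, E2f7 and Rbl1.

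Of the 34 genes, 32 had a level of at least 1 TPM (a level per transcript length, scaled to the library's total) in both libraries, as did 58.8% of 21474 protein-coding genes in the table. The exceptions were the INK4 inhibitors Cdkn2a and Cdkn2b. The detected members had a median of 43.5 TPM in pool 1 and 50.8 TPM in pool 2, and all 12634 detected protein-coding genes had medians of 19.1 and 20.0 TPM. Among those protein-coding genes, 9 members stood below the median in each library. Deposited TPM values include spike-ins, which took 13.0% of TPM in pool 1 and 7.82% in pool 2, so that each TPM below is lower in pool 1 by 0.08 (log2) from this alone. Annotated genes received 38170078 counts in pool 1 and 36382223 in pool 2. Deep counts leave little counting error for most members, but 2 pools leave the spread between pools poorly known. In bulk RNA, fewer cells of a type and less RNA per cell cannot be told apart.

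**Figure D2:**
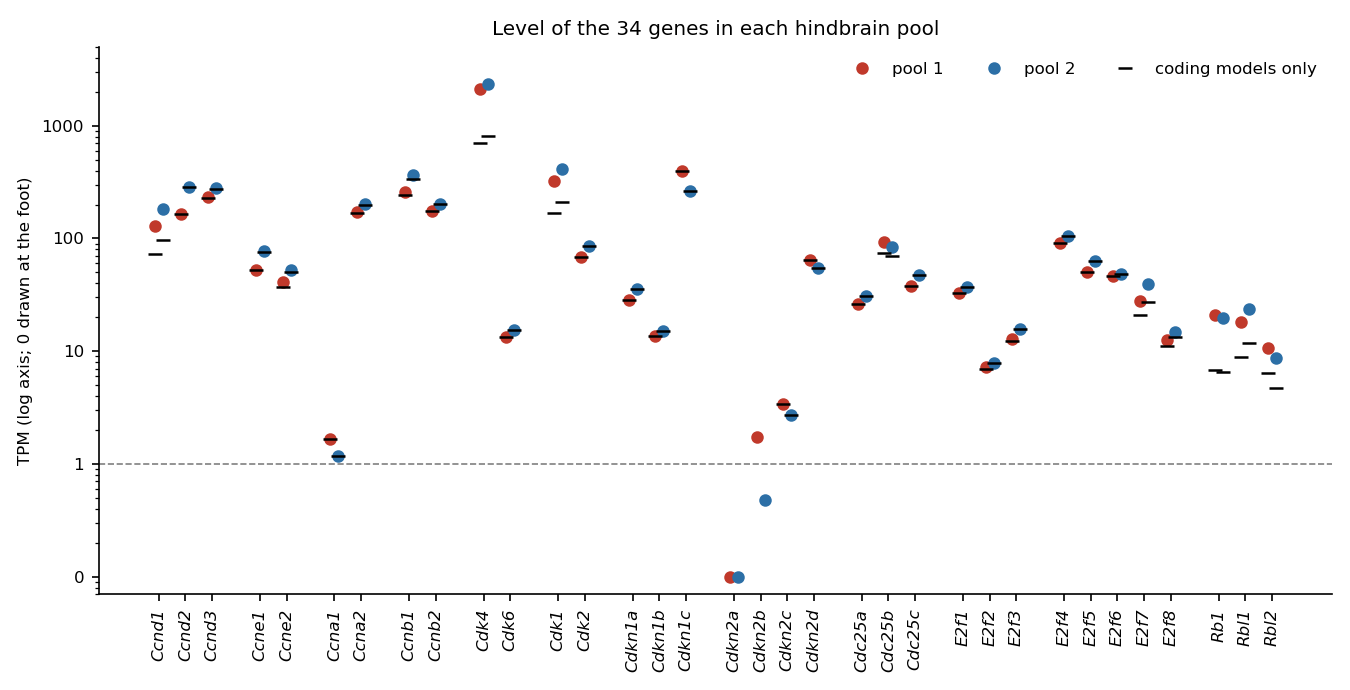
Level of each of the 34 genes in pool 1 (red) and pool 2 (blue), in TPM on a log axis with a value of 0 drawn at the foot; black bars give the level in protein-coding transcript models alone and the dashed line is 1 TPM. Cdk4 is the highest member, Cdkn2a is at 0 in both pools, and the coding level lies well below the gene level for Cdk4, Cdk1, Ccnd1 and the Rb family.

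All 3 D-type cyclins, which couple growth signals to the G1 kinases, were present at more than 100 TPM. Ccnd1 had 130 TPM in pool 1 and 183 TPM in pool 2, and Ccnd3 had 231 and 278 TPM. Ccnd2 had 165 TPM in pool 1 and 289 TPM in pool 2. The order of Ccnd2 and Ccnd3 therefore changed between the pools, and only Ccnd1 was lowest in both. By summed TPM, Ccnd3 made up 40.5% ± 4.8 of the 3 genes, Ccnd2 34.9% ± 5.0 and Ccnd1 24.6% ± 0.22 (SD, n = 2). By counts without length correction the leading gene was Ccnd2, with 60.3%, against 23.4% for Ccnd3 and 16.3% for Ccnd1.

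Part of the Ccnd1 value lay in a noncoding model, which bears on its share among the D-type cyclins. Ccnd1-202, a retained-intron model of 470 bases of which 375 lie in exons of the coding model, held 43.9% of the gene's TPM in pool 1 and 47.4% in pool 2. By counts, which are not divided by length, it took only 573 of the gene's 7757 in pool 1 and 781 of 9281 in pool 2. In the coding model of 295 residues the level was 73.0 TPM in pool 1 and 96.3 TPM in pool 2. Counted in coding models alone, a choice made after the data were seen, Ccnd1 was 15.1% of the D-type cyclins, against 24.6% by gene TPM. Ccnd3 was then 45.4% and Ccnd2 39.5%. The annotated gene at chr7:144929931-144939925 (GENCODE M21 on mm10, minus strand) overlaps LTO1 on the other strand. Exons of LTO1 cover 1100 of the 3740 bases of the coding model and none of Ccnd1-202. The sources used here do not say whether reads were counted by strand. The same limit holds for other members, among them Ccne2, Rbl2, Ccna2 and Ccnd3. Their leading models share bases with exons of Ints8, Aktip, Exosc9 and Bysl on the other strand.

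The E-type cyclins, partners of Cdk2 at the start of S phase, were lower than the D-type genes. Ccne1 had 52.9 TPM in pool 1 and 77.8 TPM in pool 2. Ccne2 had 40.8 and 52.8 TPM. By TPM, Ccne1 was the higher of the pair in both pools. By counts without length correction Ccne2 was the higher in pool 1 (2881 against 2681) and Ccne1 in pool 2 (3521 against 3461).

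Among the A-type cyclins, Ccna2, the form of dividing somatic cells, had 172 TPM in pool 1 and 204 TPM in pool 2. Ccna1, known in mice for its role in male meiosis, had 1.66 and 1.18 TPM from 66 and 42 counts. Ccna1 made up 0.765% ± 0.27 of the A-type total (SD, n = 2). The B-type cyclin Ccnb1, the main mitotic cyclin, had 256 TPM in pool 1 and 367 TPM in pool 2, and Ccnb2 had 175 and 201 TPM. A-type and B-type cyclins together reached 1.15 times the summed D-type level in pool 1 and 1.03 times in pool 2. By counts without length correction the direction turned, to 0.806 times in pool 1 and 0.670 times in pool 2.

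Cdk4, the G1 kinase that D-type cyclins activate, was by far the highest of the 34 genes. It had 2118 TPM in pool 1 and 2350 TPM in pool 2 and ranked 27 and 28 among the 12634 detected protein-coding genes. Its relative Cdk6 had 13.4 and 15.4 TPM. Cdk4 was thus 158 times the level of Cdk6 in pool 1 and 152 times in pool 2.

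By TPM, which divides by length, most of the Cdk4 level lay outside coding models, but this was not so by counts. Coding models took 22558 of the gene's 44526 counts in pool 1 and 22674 of 44389 in pool 2. Its leading model, the retained-intron model Cdk4-209 of 468 bases, held 857 TPM in pool 1 and 959 TPM in pool 2, and 443 of its 468 bases lie in exons of coding models. Coding models held 708 TPM in pool 1 and 804 TPM in pool 2, which is 33.4% and 34.2% of the gene's TPM. On that basis Cdk4 was 52.7 times the level of Cdk6 in pool 1 and 52.1 times in pool 2. By counts without length correction Cdk4 was 33.7 times Cdk6 in pool 1 and 32.6 times in pool 2. It remained the highest member in both pools by gene TPM and by coding models together. Of the coding level, 466 TPM in pool 1 and 541 TPM in pool 2 lay in Cdk4-205, a model of 950 bases annotated as incomplete. The complete coding model Cdk4-201 held 202 and 218 TPM. That is below the coding level of some other members, such as Cdkn1c (393 and 262 TPM) and Ccnd3 (229 and 275 TPM). The gene at chr10:127063534-127067920 (plus strand) overlaps Tspan31, which had 130 and 141 TPM, at its end on the other strand. Exons of Tspan31 cover 641 of the 2053 bases of Cdk4-201 and none of Cdk4-209.

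Cdk1, the kinase of mitosis, had 326 TPM in pool 1 and 413 TPM in pool 2. Coding models held 169 and 210 TPM of this, and the short retained-intron models Cdk1-203 and Cdk1-204 held 76.9 and 76.8 TPM in pool 1 and 97.2 and 101 TPM in pool 2. By counts the coding models took 5553 of the gene's 6973 in pool 1 and 6153 of 7804 in pool 2. Cdk2, which acts in S phase, had 68.1 TPM in pool 1 and 85.4 TPM in pool 2, all in coding models. Its form of 298 residues made up 73.5% of the gene in pool 1 and 77.7% in pool 2, and the longer form of 346 residues made up the rest. Cdk1 exceeded Cdk2 in both pools on either measure.

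**Figure D3:**
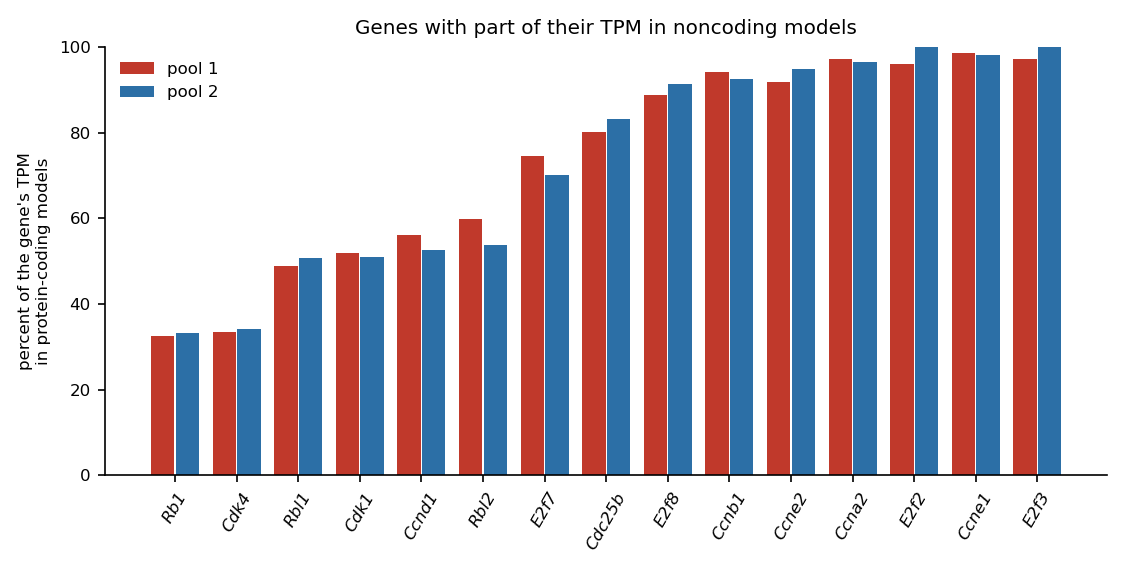
Percent of a gene's TPM that lay in protein-coding transcript models in pool 1 (red) and pool 2 (blue), for the members with a mean below 99%. Rb1 and Cdk4 had about a 33% coding share in both pools, and the 8 leftmost genes averaged below 90%.

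Among 32 detected members, 8 had less than 90% of their TPM in coding models, against 34.4% of 12633 protein-coding genes whose models summed to at least 1 TPM in both libraries. The members were Rb1, Cdk4, Rbl1, Cdk1, Ccnd1, Rbl2, E2f7 and Cdc25b. A noncoding model led in 2 members, Cdk4 and Rb1 (6.25%), against 7.16% of all. Among these 8 were Cdk4 and Cdk1, the highest 2 members by mean gene TPM, which includes the noncoding models. By coding models alone Cdk1 (169 TPM in pool 1 and 210 TPM in pool 2) was below Cdkn1c, Ccnb1 and Ccnd3 in both pools. The median member had 90.5% of its TPM in its leading model, against 83.6% for all protein-coding genes.

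The Cdk inhibitors were led by Cdkn1c, an imprinted Cip/Kip gene expressed from the maternal allele and known to act when precursors stop dividing. Cdkn1c had 393 TPM in pool 1 and 262 TPM in pool 2, against 28.2 and 35.4 TPM for Cdkn1a, the inhibitor induced by p53. Cdkn1b, an inhibitor of Cdk2 complexes, had 13.7 TPM in pool 1 and 15.0 TPM in pool 2. Cdkn1c therefore held 87.1% ± 4.6 of the Cip/Kip level (SD, n = 2). Its coding form of 335 residues made up 78.7% of the gene in pool 1 and 79.0% in pool 2, and a form of 348 residues made up the rest.

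The INK4 inhibitors, which bind Cdk4 and Cdk6 alone, were lower and rested on 1 gene. Cdkn2d had 64.2 TPM in pool 1 and 54.7 TPM in pool 2, which was 93.6% ± 1.4 of the INK4 total (SD, n = 2). Cdkn2c had 3.39 and 2.69 TPM. Cdkn2b had 1.74 TPM from 61 counts in pool 1 and 0.48 TPM from 15 counts in pool 2. Cdkn2a, which also encodes the Arf protein that restrains Mdm2, had 0 counts in both libraries, and 3 counts, the limit that a count of 0 allows, would be 0.143 TPM in pool 1 and 0.160 TPM in pool 2. Cip/Kip genes made up 85.3% ± 1.4 of the summed inhibitor level.

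The Cdc25 phosphatases remove the inhibitory phosphates from Cdks. Cdc25b was the highest of the 3, with 92.6 TPM in pool 1 and 84.1 TPM in pool 2, of which coding models held 74.3 and 70.0 TPM. Cdc25c had 38.2 and 47.1 TPM, and Cdc25a, which acts at the start of S phase, had 26.4 and 30.8 TPM. By TPM the order was the same in both pools. By counts without length correction Cdc25a (2513 in pool 1 and 2631 in pool 2) was above Cdc25c (1900 and 2104).

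All 8 E2f genes were detected. The activators E2f1, E2f2 and E2f3 had 33.1, 7.18 and 12.8 TPM in pool 1 and 36.9, 7.90 and 15.9 TPM in pool 2. E2f4 and E2f5, which pair with Rbl1 and Rbl2 in resting cells, had 91.1 and 50.5 TPM in pool 1 and 106 and 62.9 TPM in pool 2. E2f6, a repressor that does not bind Rb proteins, had 46.2 TPM in pool 1 and 48.8 TPM in pool 2. The atypical repressors E2f7 and E2f8 had 27.9 and 12.6 TPM in pool 1 and 39.3 and 14.7 TPM in pool 2.

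The activators made up 18.6% ± 0.42 of the E2f level, and E2f4, E2f5 and E2f6 made up 66.1% ± 0.92 (SD, n = 2). E2f4 was the highest and E2f2 the lowest of the family in both pools. By counts without length correction the activators made up 25.5%.

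**Figure D4:**
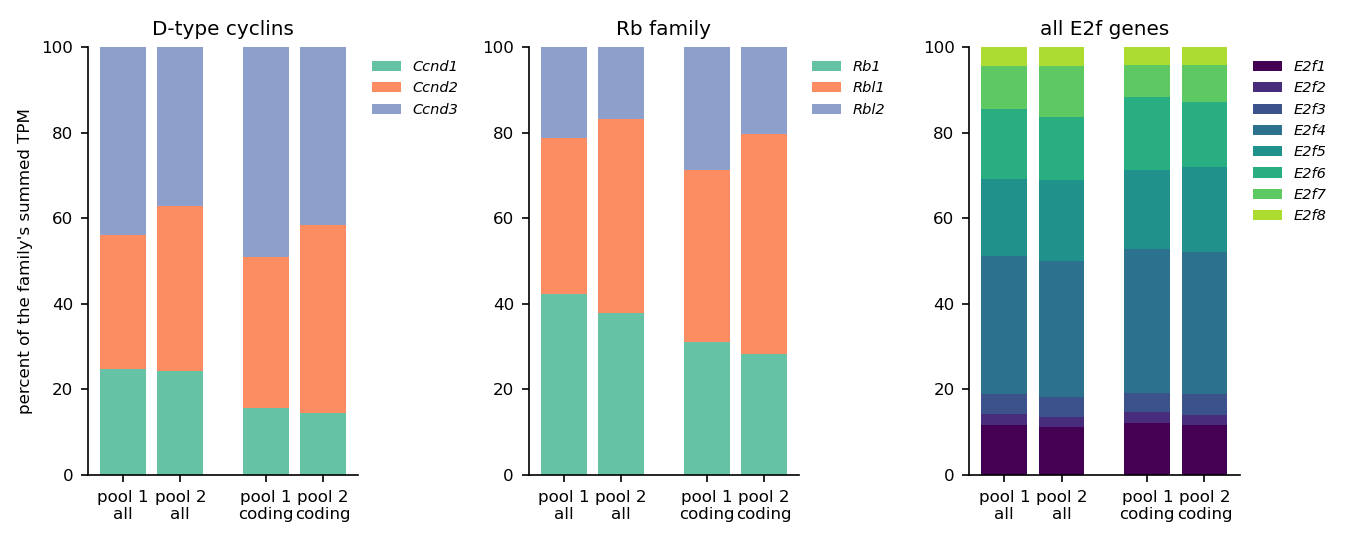
Makeup of the D-type cyclins, the Rb family and the E2f family in each pool, as percent of the family's summed TPM, by all transcript models (left pair of bars in each panel) and by protein-coding models (right pair). The Ccnd1 and Rb1 shares are smaller by coding models, while the activator share of the E2f family is 18.6% by all models and 19.1% by coding models.

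The Rb family encodes the proteins that hold E2f factors in check, and Rb1 and Rbl1 stood near the median of detected protein-coding genes by gene TPM. Rb1 had 21.2 TPM in pool 1 and 19.7 TPM in pool 2, Rbl1 had 18.2 and 23.6 TPM, and Rbl2 had 10.7 and 8.76 TPM. Rb1 was highest in pool 1 and Rbl1 was highest in pool 2.

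By TPM, which divides by length, most of the Rb1 level lay in short models inside exons of other genes, but by counts most of it lay in the coding model. That model of 921 residues took 847 of the gene's 974 counts in pool 1 and 721 of 827 in pool 2. The leading model by TPM, a processed transcript of 408 bases with 84.9 counts in pool 1 and 84.2 in pool 2, held 48.0% of the gene's TPM in pool 1 and 57.0% in pool 2, and none of its bases lie in exons of the coding model. All 408 bases lie in exons of Lpar6, a receptor gene inside an Rb1 intron on the opposite strand. A further 17.0% in pool 1 and 4.01% in pool 2 lay in another such model with 30.3 and 5.97 counts, of which 383 of 411 bases lie in exons of Rcbtb2, also on the opposite strand. Lpar6 had 12.4 TPM in pool 1 and 15.2 TPM in pool 2, and Rcbtb2 had 116 and 133 TPM. Without the strand of each read these sources cannot be told apart. The coding model, spread over chr14:73183673-73325822, held 6.87 TPM in pool 1 and 6.53 TPM in pool 2.

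In coding models the order of the Rb family was the same in both pools. Rbl1 had 8.89 TPM in pool 1 and 11.9 TPM in pool 2, above Rb1, and Rbl2 was lowest with 6.38 and 4.70 TPM. Rbl1 was 1.39 times the level of Rbl2 in pool 1 and 2.54 times in pool 2, while the family's coding sum was 22.1 and 23.2 TPM. The summed coding level of the E2f genes was 272 TPM in pool 1 and 319 TPM in pool 2.

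Pool 1 was next set against pool 2, to show which members vary between pools of the same age. Ratios were taken from counts scaled by TMM, which sets aside the spike-in share, for 14385 genes that reached a CPM of 1 (counts scaled to the library) in each pool. The 32 members with a ratio had a median log2 ratio of -0.15, against 0.00 for all 14385 genes. The ratio was below 1 for 24 of 32 members, against 49.9% of all genes. By role, it was below 1 for 8 of 9 cyclins, all 4 Cdks, 7 of 8 E2f genes and 2 of 3 Cdc25 genes, and for 2 of 5 inhibitors and 1 of 3 Rb genes.

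The lowest ratio was that of Ccnd2. With 24999 counts in pool 1 and 39195 in pool 2, its log2 ratio was -0.73 (95% interval -0.75 to -0.70, exact Clopper-Pearson, counting error only). This is 1.66-fold higher in pool 2. Next came Ccne1 at -0.47, Ccnb1 at -0.42, Ccne2 at -0.34 and Ccnd1 at -0.34. The other members with a ratio below 1, Rbl1 at -0.30 and Cdkn1a at -0.19 among them, lay between -0.31 and -0.03.

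The highest ratio was that of Cdkn1c, at chr7:143458339-143461050 (minus strand). With 19166 counts in pool 1 and 11422 in pool 2, its log2 ratio was 0.67 (0.64 to 0.70), which is 1.59-fold higher in pool 1. The other inhibitors and Rb genes on that side were Rbl2 at 0.46 (0.32 to 0.61), Cdkn2c at 0.38 (0.04 to 0.74), Cdkn2d at 0.31 (0.21 to 0.41) and Rb1 at 0.16 (0.02 to 0.29). Cdc25b stood at 0.17. Ccna1 stood at 0.55, from 66 and 42 counts, with an interval of -0.01 to 1.17. E2f6, E2f1, E2f2 and Cdkn1b also had intervals that span 0. Ccnd2 and Cdkn1c are the members with the lowest and highest ratio, so their contrast is the widest of any pair. The level of Ccnd2 over that of Cdkn1c, as TPM, was 0.420 in pool 1 and 1.10 in pool 2. By counts without length correction it was 1.30 and 3.43, above 1 in both pools.

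At the 1.5-fold line, 1 of 32 members (Cdkn1c) was higher in pool 1, against 9.40% of all genes, and 1 of 32 (Ccnd2) was higher in pool 2, against 4.03% of all genes. The members' share at this line was near or below the background. Cdkn2b, below the count limit, had a log2 ratio of 1.82 (1.11 to 2.87) from its 61 and 15 counts. Scaling to the spike-ins shifted the median of all genes to -0.82 and put each of the 32 members below 0, Cdkn1c at -0.15 included, while relative to that median Cdkn1c stayed at 0.66 and Ccnd2 at -0.73; E2f6, at 0.00, was the only member that changed side relative to the median.

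**Figure D5:**
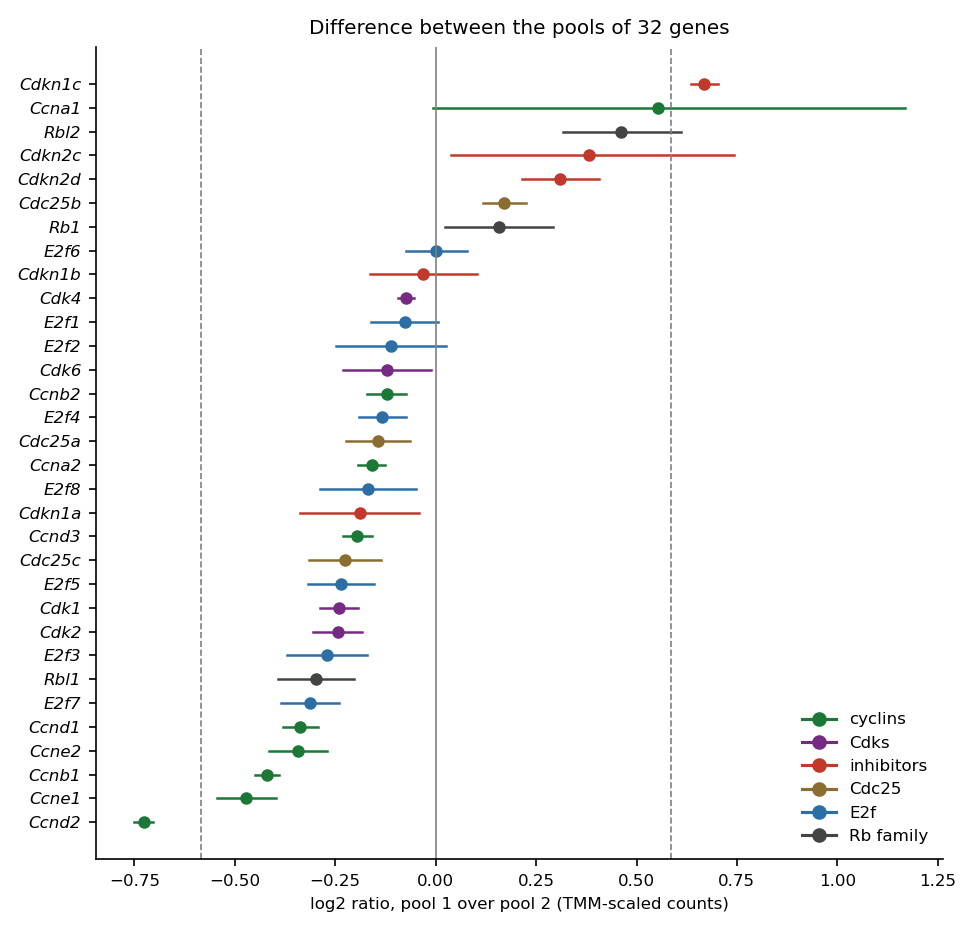
Log2 ratio of pool 1 over pool 2 for 32 genes, from TMM-scaled counts, with 95% exact intervals that cover counting error only; dashed lines mark 1.5-fold and colours the role of each gene. Cyclins and E2f genes gather left of 0, Ccnd2 lies beyond the left line and Cdkn1c beyond the right line.

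Markers of cell types differed between the pools at the same time. The 7 markers of postmitotic neurons were all higher in pool 1, against 50.1% of all genes. Their median log2 ratio was 1.06 and their summed level was 1709 TPM in pool 1 and 1009 TPM in pool 2. All 3 proliferation markers (Mki67, Pcna, Top2a) were lower in pool 1, against 49.9% of all genes. Their median was -0.56 and their summed level was 449 and 644 TPM. The 5 markers of neural progenitors had a median of 0.20, and the 4 of hindbrain position 0.66. Red blood cell genes summed to 12333 TPM in pool 1 and 14194 TPM in pool 2, so RNA of blood was present in both pools. The 3 surface ectoderm markers had a median of -0.47, with sums of 82.4 and 129 TPM, the 3 macrophage markers 0.58, with 45.5 and 30.9 TPM, the endothelial ones 0.03 and the mesenchymal ones 0.14. Every marker was above 5 TPM on average, and the part of any of these cells in the members' ratios was not tested.

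Partners of the E2f and Rb proteins form a list of 9 genes with the MuvB subunits, and all 9 were detected. Their median log2 ratio was -0.15, against 0.00 for all genes, and 7 of 9 were below 0, against 49.9% of all genes. Rbbp4, a histone-binding subunit of MuvB, was highest with 375 TPM in pool 1 and 437 TPM in pool 2. By scaled counts its log2 ratio of -0.43 was the farthest from 0, but its TPM differed less than that between the pools. Tfdp1 and Tfdp2, the dimer partners of E2f factors, had 132 and 54.2 TPM in pool 1 and 159 and 68.1 TPM in pool 2. By scaled counts none of the 9 was 1.5-fold higher in pool 1 or in pool 2, against 9.40% and 4.03% of all genes.

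The 13 regulators of Cdk activity had a median of -0.15, with 11 of 13 below 0, against 49.9% of all genes. By scaled counts none was 1.5-fold higher in pool 1 or in pool 2, against 9.40% and 4.03% of all genes. Cks1b, a small subunit of Cdk complexes, had 428 TPM in pool 1 and 547 TPM in pool 2. Cdc20, which activates the anaphase-promoting complex, had 265 and 314 TPM. The ubiquitin ligase subunits Cul1 and Skp2, which mark Cdkn1b for destruction, lay farthest from 0 on the low side, with log2 ratios of -0.55 and -0.36. Cul1 had 104 TPM in pool 1 and 159 TPM in pool 2, past 1.5-fold by deposited TPM though not by scaled counts, and Skp2 had 68.1 and 90.7 TPM.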

How the data were processed

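Gene and transcript tables of 2 hindbrain libraries (pool 1 and pool 2, replicates 1 and 2 of the labels) were used. Per the file headers, the authors deposited an expected count (an estimated count that divides ambiguous reads), TPM, a posterior mean TPM and FPKM for each feature. Per the file headers, the transcript tables also give isoform percent; percent values here were recomputed from deposited TPM. Credibility bounds of TPM (signal values per the file headers) were deposited too and are not used in the text. The assembly is mm10, per the labels, and the annotation M4, per the deposited notes. Aligner, quantifier and use of strand: not given in the sources used here. Symbols came from GENCODE M21, matched without version (42462 of 43346 genes).

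Expected counts were rounded. Library sizes were 38170078 and 36382223. Ratios were log2 of TMM-scaled CPM (edgeR 4.0.16) with a prior count of 2, for genes with CPM of at least 1 in both libraries. Counts of some genes differed between the libraries by more than counting error, so they were treated as 2 samples. Examples are the log2 ratios of Ccnd2 (-0.73, interval -0.75 to -0.70) and Cdkn1c (0.67, interval 0.64 to 0.70). Ratio intervals are exact at 95%, and they and the floor of 3 counts cover counting error only, as reads are not independent molecules. Near-identical copies were sought with BLAST 2.17.0 (at least 95% identity over 150 bases). The ratio calculation was tested on simulated data. Members and lists were chosen with earlier results of these data known. Of each pathway list, the 2 genes of highest mean TPM and the 2 farthest from a ratio of 1 are named. Alternatives were scaling by spike-ins, by total count and by DESeq2 1.42.0, changed priors, filters and thresholds, posterior mean TPM, FPKM, unscaled counts and each library alone; coding models alone were added after seeing the data. Calculations used Python 3.11.15. Protein sequences were not used here.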

Additional observations from a re-analysis of the deposited data

How the results depend on the processing

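The number of members detected, 32, lay between 30 and 33 under each threshold, unit and library tried. The median log2 ratio of the members was -0.15 and stayed between -0.22 and -0.14 under every scaling, filter and prior count except spike-in scaling, where it was -0.97 while all genes moved to -0.82; then 0 members were 1.5-fold higher in pool 1 and 27 in pool 2, since that scaling lowers every ratio. With no filter on low counts, 2 members were 1.5-fold higher in pool 1, Cdkn2b being added. Counts without length correction, which weight long RNAs, gave D-type shares of 16.3% for Ccnd1, 60.3% for Ccnd2 and 23.4% for Ccnd3, Rb family shares of 25.7% for Rb1 and 52.1% for Rbl1, an E2f activator share of 25.5%, a Cip/Kip share of 89.4% and a ratio of A- and B-type to D-type cyclins of 0.738. Coding models alone, added after seeing the data, gave 15.1% for Ccnd1, 45.4% for Ccnd3, 29.6% for Rb1, 24.6% for Rbl2, 19.1% for the activators and a cyclin ratio of 1.18. With 1 library left out, shares were 24.4% to 24.7% for Ccnd1, 31.4% to 38.5% for Ccnd2, 37.1% to 43.9% for Ccnd3, 37.9% to 42.3% for Rb1, 36.3% to 45.3% for Rbl1, 16.8% to 21.4% for Rbl2, 18.3% to 18.9% for the activators, 84.4% to 86.3% for Cip/Kip, 1.03 to 1.15 for the cyclin ratio and 90.3% to 91.7% for the median leading model. No paired analysis was possible because there is 1 group. Depth limits Cdkn2a, Cdkn2b and Ccna1, and the number of pools limits every statement on spread.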

Other observations

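Further cyclins and Cdks form a list of 23 genes, some of them with roles in transcription or in postmitotic cells, and all 23 were detected. The 23 genes of this list had a median log2 ratio of pool 1 over pool 2 of -0.04, with 13 of 23 below 0, against 49.9% of all genes. Ccnl2, a cyclin of splicing kinases, had 134 TPM in pool 1 and 150 TPM in pool 2, and Cdk16 had 115 and 105 TPM. Cdk5r1, the activator of Cdk5 in neurons, had 14.4 TPM in pool 1 and 5.91 TPM in pool 2, with a log2 ratio of 1.37, the highest of the list. Cdk18 had the lowest, -0.59 by counts, although its TPM was 1.77 in pool 1 and 1.78 in pool 2. By scaled counts those were the only members of the list past 1.5-fold, 1 of 23 in each direction, against 9.40% of all genes higher in pool 1 and 4.03% higher in pool 2.

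Processed pseudogenes nearly identical to members took few reads. Ccnb1-ps, 99.2% identical to Ccnb1 over 1287 bases, had 52.1 counts in pool 1 and 92.7 in pool 2, against 15777 and 19987 for Ccnb1. Gm12856 and Ccnd3-ps had at most 10.1 counts.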
